A study of Mus musculus with 38 samples.

Results

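The nuclear genes for the subunits of the mitochondrial respiratory chain and the ATP synthase were followed, complex by complex, in cardiomyocytes, endothelial cells (ECs) and fibroblasts of the mouse heart. Members were the protein-coding rows of the count table whose Ensembl identifier maps to a subunit name of complexes I to V, namely Nduf (letters a, b, c, s and v), Sdha to Sdhd, Uqcr, Cyc1, Cox4 to Cox8 with an isoform letter, and Atp5. The rule found 88 of 35682 rows, with 37 in complex I, 4 in complex II, 9 in complex III, 19 in complex IV and 19 in complex V. Ndufa4 and its relative Ndufa4l2 were placed with complex IV, Cox7a2l, a factor of supercomplex assembly, also with complex IV, and Atp5if1, the inhibitor of the ATP synthase, with complex V. Cox4i1, Cox4i2, Ndufab1 and Cycs, whose names do not match the rule, were read beside the members and not counted among them.

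C57BL/6 mice took an oral dose every day for 6 weeks and then had their chest opened. Sham mice (SHAM in the labels) received the vehicle, 5% DMSO in saline, and no ligation of the left anterior descending artery. Control-AMI mice (Control_IR) received the same vehicle, and EMPA-Pre-AMI mice (EMPA_IR) received empagliflozin, an inhibitor of the sodium-glucose cotransporter SGLT2, at 10 mg/kg in that vehicle. In both AMI groups the artery was closed for 30 min, and the hearts were then reperfused for 2 h. Cells came from the tissue below the suture, and each library pooled 2 hearts, so a library and not a mouse is the replicate. Cardiomyocytes were pelleted at low speed, ECs were sorted as CD45- CD31+ and fibroblasts as CD45- CD31- CD90+ cells. Of the 38 libraries, 13 were of cardiomyocytes (4, 5 and 4 in the order Sham, Control-AMI and EMPA-Pre-AMI), 13 of ECs (4, 4 and 5) and 12 of fibroblasts (4 in each group).

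Complex I (NADH dehydrogenase) and complex II (succinate dehydrogenase) pass electrons to ubiquinone, complex III (cytochrome bc1) passes them to cytochrome c, and complex IV (cytochrome c oxidase) to oxygen. Complexes I, III and IV pump protons, and complex V, the ATP synthase, uses the gradient to make ATP. All but complex II also hold subunits encoded by mitochondrial DNA. The beating heart depends on this pathway for nearly all of its ATP, and striated muscle uses its own isoforms of several complex IV subunits (Cox6a2, Cox7a1 and Cox8b) in place of the forms found in most other tissues (Cox6a1, Cox7a2 and Cox8a).

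Total counts were 2031716 to 4509284 per cardiomyocyte library, 1352514 to 2195308 per EC library and 1946056 to 2821373 per fibroblast library, with 46.6 to 66.01%, 4.52 to 14.6% and 3.47 to 12.5% of them from mitochondrial genes. A count of 3 corresponded to 0.665 to 1.48, 1.37 to 2.22 and 1.06 to 1.54 CPM, the count per library scaled to a fixed total, respectively. Myh6 and Tnnt2 marked the cardiomyocyte libraries, Pecam1 and Cdh5 the ECs, and Dcn and Col1a1 the fibroblasts, with each gene's lowest library in its own population above every library of the others. Markers of the other populations were nevertheless detected. Zeros were looked for in these genes and in Thy1, Ptprc, Hbb-bs and Rgs5, and not in the other markers. Among those examined, only Ptprc of leukocytes (0 in 1 EC and 3 fibroblast libraries) and Cdh5 (0 in 3 fibroblast libraries) were at 0 anywhere. The sum of 11 cardiomyocyte markers was 26014 to 54667 CPM in cardiomyocytes, but also 339 to 1893 CPM in the EC libraries and 184 to 1083 CPM in the fibroblast libraries. Of the 13 cardiomyocyte libraries, EMPA-Pre-AMI libraries 2 and 3 stood apart in the members' levels. Read in order of sample-sheet position, the label numbers also divide the libraries into 4 lists (runs in which the label number rises with the position). These lists were inferred from the numbers and are not named in the labels. The study reports that all samples had their libraries prepared and sequenced together. All Sham and Control-AMI cardiomyocytes are on list 4. EMPA-Pre-AMI libraries 1 and 3 are on list 3, library 2 is on list 2 and only library 4 is on list 4.

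The promoters of 6 members are shown: 2 isoforms used by muscle (Cox7a1 and Cox8b), 2 used more widely (Cox6a1 and Cox7a2), and 1 gene each of complexes III (Uqcr11) and V (Atp5mc3) that were higher in EMPA-Pre-AMI cardiomyocytes. Cox7a1, Cox8b and Cox7a2 were also called higher there, and Cox6a1 was not. The 6 genes were picked for display, and their letters do not compare genes that were called with genes that were not. Each run is the 250 bases before the annotated start in RefSeq, on the strand of the gene, in build GRCm38.p6, which is not the build used for counting. Capitals mark a match, on either strand, to the letters of the NRF1, GABP (CCGGAAGT) or ERR (TCAAGGTCA) motifs, factors known to act on nuclear genes of the respiratory chain. Positions were Cox6a1 chr5:115348959-115349208 (minus strand), Cox7a2 chr9:79759854-79760103 (minus), Cox7a1 chr7:30183921-30184170 (plus), Cox8b chr7:140900447-140900696 (minus), Uqcr11 chr10:80406822-80407071 (minus) and Atp5mc3 chr2:73911327-73911576 (minus).
Cox6a1: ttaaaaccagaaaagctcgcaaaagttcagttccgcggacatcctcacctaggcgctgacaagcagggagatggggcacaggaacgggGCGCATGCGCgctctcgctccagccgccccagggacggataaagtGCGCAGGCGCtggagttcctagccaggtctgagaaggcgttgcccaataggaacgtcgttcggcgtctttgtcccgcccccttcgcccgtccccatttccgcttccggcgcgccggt
Cox7a2: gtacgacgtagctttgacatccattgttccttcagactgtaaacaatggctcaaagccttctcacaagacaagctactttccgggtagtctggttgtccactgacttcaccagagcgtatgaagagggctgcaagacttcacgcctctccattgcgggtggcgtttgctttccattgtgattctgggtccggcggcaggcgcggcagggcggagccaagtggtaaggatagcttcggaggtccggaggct
Cox7a1: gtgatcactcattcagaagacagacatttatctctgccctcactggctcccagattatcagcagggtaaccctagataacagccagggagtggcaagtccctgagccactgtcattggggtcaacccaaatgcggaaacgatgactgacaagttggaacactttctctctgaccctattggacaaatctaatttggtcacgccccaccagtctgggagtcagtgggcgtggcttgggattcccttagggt
Cox8b: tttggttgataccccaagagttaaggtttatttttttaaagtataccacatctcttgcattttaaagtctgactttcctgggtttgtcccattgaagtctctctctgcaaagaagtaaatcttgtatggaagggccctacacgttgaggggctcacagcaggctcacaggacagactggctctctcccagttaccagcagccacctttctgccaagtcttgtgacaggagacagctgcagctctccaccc
Uqcr11: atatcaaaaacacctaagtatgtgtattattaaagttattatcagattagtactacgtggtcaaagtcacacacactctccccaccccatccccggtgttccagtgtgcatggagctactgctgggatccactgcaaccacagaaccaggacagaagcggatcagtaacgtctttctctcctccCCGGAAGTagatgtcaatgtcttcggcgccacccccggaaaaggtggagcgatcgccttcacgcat
Atp5mc3: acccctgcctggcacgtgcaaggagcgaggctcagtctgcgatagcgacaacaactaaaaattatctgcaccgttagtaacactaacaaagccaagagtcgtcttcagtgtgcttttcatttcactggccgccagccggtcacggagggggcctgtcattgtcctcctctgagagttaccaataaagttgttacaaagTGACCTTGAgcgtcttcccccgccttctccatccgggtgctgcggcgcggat
The Cox6a1 window held 2 NRF1 matches, starting 162 and 117 bases before the start. Uqcr11 held a GABP match 66 bases before the start and Atp5mc3 an ERR match 52 bases before it. None of these letters was found in the windows of Cox7a1, Cox8b or Cox7a2, which says only that the letters are not there.

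Of the 88 members, 84 matched a RefSeq gene and 69 had a window. These are 68 genes, since 2 identifiers share the name Atp5po, with 73 windows in all when each was taken from 250 bases before to 50 after the start. NRF1 letters were in 24.7% of the members' windows and in 4.60% of all 32851 windows. The YY1 motif (AAGATGGCG) was in 9.59% against 1.4%, the GABP motif in 6.85% against 3.89% and the ERR motif in 2.74% against 0.423%. By complex, NRF1 letters were found for 7 of 32 genes of complex I, 2 of 3 of complex II, 1 of 5 of complex III, 1 of 14 of complex IV and 6 of 14 of complex V. YY1 letters were found for 5 genes of complex I and 2 of complex V.

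On a scale common to all 38 libraries, every complex in Sham hearts was more than 10-fold higher in cardiomyocytes than in either other population. The size of these ratios depends on the scaling. As plain shares of nuclear counts, the median member was 9.05-fold higher than in ECs and 7.43-fold higher than in fibroblasts. On the common scale, the summed level of complex I was a median of 22590 CPM in cardiomyocytes, 1589 CPM in ECs and 2037 CPM in fibroblasts. Complex II was at 2411, 181 and 233 CPM, complex III at 7967, 493 and 547 CPM, complex IV at 17977, 948 and 1070 CPM, and complex V at 24653, 1482 and 1809 CPM. The cardiomyocyte to EC ratio of these medians was lowest for complex II (13.3) and highest for complex IV (18.96). No cardiomyocyte library overlapped with a library of the other populations in the sum of any complex, as the plot of summed levels shows. Members took 7.83 to 8.59% of the nuclear counts of Sham cardiomyocytes, 0.760 to 0.896% in Sham ECs and 0.782 to 1.02% in Sham fibroblasts. In bulk libraries, a larger share of cells of a type and more RNA per cell cannot be told apart.

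**Figure D1:**
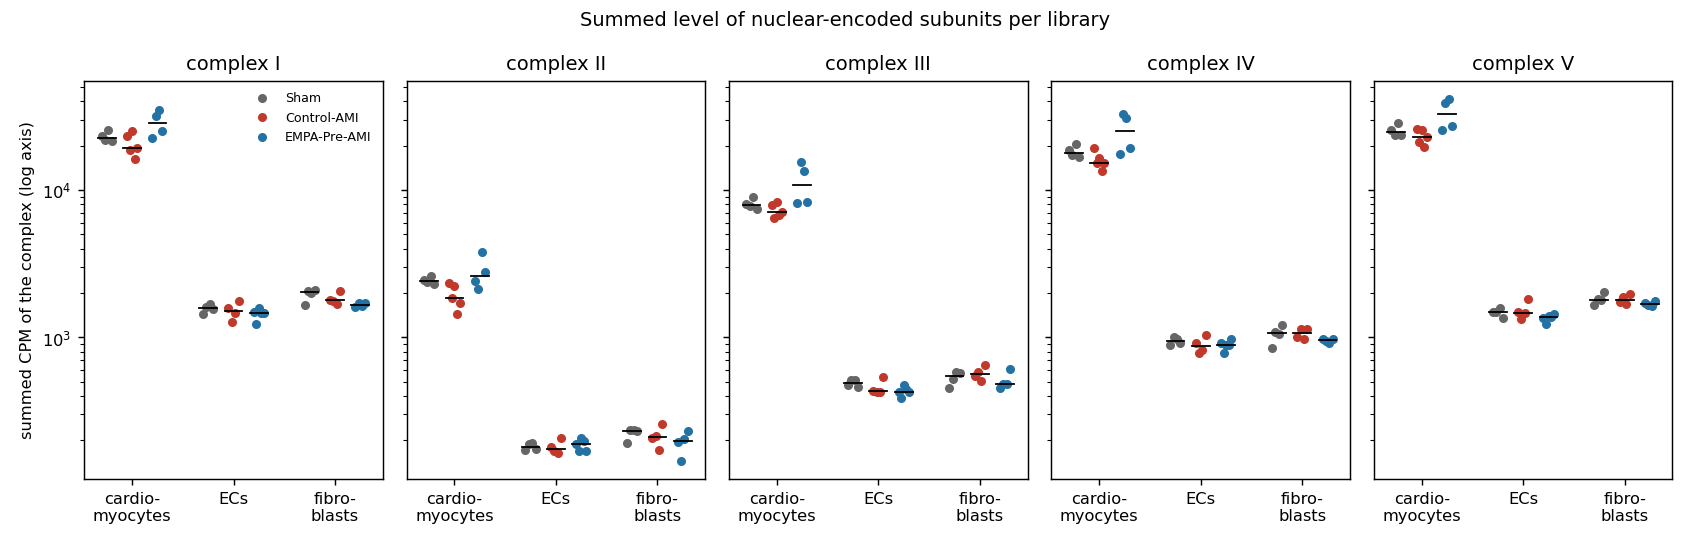
Summed CPM of the nuclear subunits of each complex on a log axis, 1 point per library on the scale common to 38 libraries, with the median of each group as a line. Cardiomyocyte libraries lie above all EC and fibroblast libraries in each complex, and in each complex the highest cardiomyocyte library is an EMPA-Pre-AMI library.

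Gene by gene, 82 of the 88 members passed the filter on low counts in the fit over all libraries. Of these, 82 were higher in Sham cardiomyocytes than in Sham ECs, where 28.1% of all genes were higher, and 81 were higher than in Sham fibroblasts, where 24.5% of all genes were (edgeR quasi-likelihood test, false discovery rate [FDR] under 0.05). The median fold was 15.1 against ECs and 11.9 against fibroblasts. By complex, the median log2 fold change against ECs was 3.77 in complex I, 3.04 in complex II, 4.05 in complex III, 3.80 in complex IV and 4.02 in complex V. The size of these folds depends on scaling: taken as plain shares of the nuclear counts, the values of members and listed genes shifted by -0.72 (ECs) and -0.68 (fibroblasts) on the log2 scale, the median ratios of members became 9.05 and 7.43, and 81 of 82 members remained higher in each comparison. The exceptions on that scale were Cox6a1 against ECs, with a ratio of 0.999, and Ndufa4l2 against fibroblasts.

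Within complex I, Ndufv1 (which binds FMN and NADH) was 20.9-fold and Ndufs1 12.3-fold higher in Sham cardiomyocytes than in Sham ECs, each with a log2 SE of 0.21. The range of the complex ran from Ndufa8 (3.99-fold) and Ndufc2 (4.05-fold) to Ndufs6 (25.6-fold) and Ndufa5 (44.8-fold), all 4 accessory subunits. Ndufa5 was at 2127, 2353, 2226 and 1981 CPM in the Sham cardiomyocyte libraries and at 69.4, 39.6, 40.2 and 44.7 CPM in the Sham ECs. Ndufa8 was at 338, 254, 365 and 315 CPM in the cardiomyocytes and at 59.5, 89.0, 86.7 and 83.4 CPM in the ECs, so even this gene did not overlap between them. The 7 core subunits, which carry the redox centres, had a median of 3.74 on the log2 scale, and the 29 accessory subunits had 3.83.

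Complex II had the lowest median against ECs (3.04), though not against fibroblasts, where it was 3.40 and that of complex I was 3.37. Sdhb, its iron-sulfur subunit, was 26.9-fold higher in cardiomyocytes than in ECs, whereas Sdha, the flavoprotein that oxidizes succinate, was 5.66-fold higher. The membrane anchors Sdhc and Sdhd were 9.42-fold and 7.19-fold higher, but Sdhd rested on 11 to 23 counts per Sham cardiomyocyte library and 0 to 9 per Sham EC library, and its log2 SE was 0.67. In Sham ECs the levels of Sdha (83.2, 115, 95.3 and 84.7 CPM) exceeded those of Sdhb (65.7, 50.01, 68.0 and 63.4 CPM), and in Sham cardiomyocytes Sdhb (1650, 1677, 1753 and 1563 CPM) exceeded Sdha (528, 483, 598 and 535 CPM). These levels count 3′ ends and are not divided by transcript length, since the protocol makes about 1 fragment per transcript.

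In complex III, the catalytic subunits Cyc1 (cytochrome c1) and Uqcrfs1 (the Rieske protein) were 18.8-fold and 16.7-fold higher in cardiomyocytes than in ECs, and the core protein Uqcrc1 was 16.6-fold higher. Uqcrb (7.98-fold) and Uqcrc2 (12.4-fold) were lowest, and Uqcrq (26.3-fold) was highest. In complex V, the catalytic F1 subunits Atp5f1a and Atp5f1b were 16.2-fold and 10.8-fold higher, and the inhibitor Atp5if1 was 7.04-fold higher. The 3 genes for the identical c subunit of the rotor ring differed widely. Atp5mc1 was 60.8-fold, Atp5mc3 20.5-fold and Atp5mc2 4.56-fold higher in cardiomyocytes than in ECs, with log2 SE of 0.21, 0.25 and 0.29, and 45.7-fold, 15.1-fold and 4.42-fold higher than in fibroblasts. Atp5me, a small subunit of the membrane domain, was 32.5-fold higher than in ECs.

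**Figure D2:**
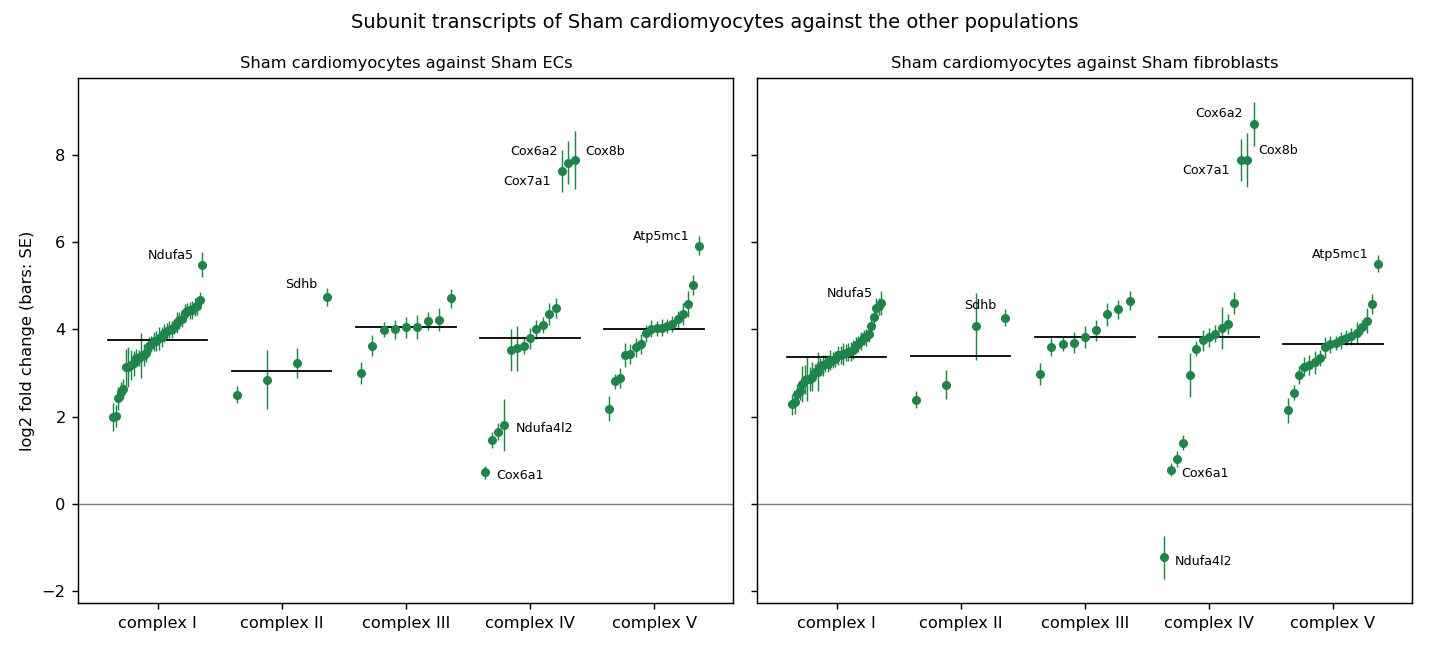
Log2 fold change with SE of each of 82 members in Sham cardiomyocytes against Sham ECs (left) and Sham fibroblasts (right), sorted within complexes I to V, with the median of each complex as a line. Cox6a2, Cox7a1 and Cox8b stand above all other members in both panels, Cox6a1 is the lowest against ECs (0.73), and Ndufa4l2 alone is below 0 against fibroblasts. On plain shares of nuclear counts Cox6a1 is no longer higher than in ECs.

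Complex IV spread most widely because its paired isoforms lay at both ends. Cox6a2 was at 6462, 5941, 6468 and 5587 CPM in Sham cardiomyocytes, at 20.1, 8.23, 57.0 and 21.7 CPM in Sham ECs and at 6.63, 17.1, 29.2 and 6.23 CPM in Sham fibroblasts. Its partner Cox6a1 was at 188, 200, 198 and 190 CPM in cardiomyocytes, at 112, 142, 105 and 110 CPM in ECs and at 91.6, 115, 116 and 127 CPM in fibroblasts. Cox6a2 was thus 227-fold higher in cardiomyocytes than in ECs (log2 7.83, SE 0.50, FDR 6.49e-12) and Cox6a1 1.66-fold higher (log2 0.73, SE 0.15, FDR 0.000105), the latter only on the fitted scale. Cox7a1 was 199-fold and Cox7a2 12.3-fold higher, and Cox8b was 235-fold and Cox8a 3.15-fold higher, although Cox8b rested on 0 to 17 counts in the Sham ECs and 0 to 23 in the Sham fibroblasts. Cox7a2l was 2.77-fold higher. Cox5a and Cox5b were 20.6-fold and 16.02-fold higher, and Cox4i1, outside the rule, was 19.5-fold higher.

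Shares within the pairs do not depend on the scaling between libraries. Cox6a2 made up 96.7 to 97.2% of the Cox6a2 and Cox6a1 counts in Sham cardiomyocytes, 5.49 to 35.2% in Sham ECs and 4.67 to 20.1% in Sham fibroblasts. For Cox7a1 in its pair with Cox7a2 the shares were 58.4 to 61.2%, 3.96 to 18.7% and 3.46 to 9.36% in the same order, and for Cox8b in its pair with Cox8a they were 66.9 to 70.1%, 0 to 5.61% and 0 to 4.75%. Cardiomyocytes therefore carried transcripts of both members of the Cox7a and Cox8 pairs but almost only Cox6a2 of the third pair. Control-AMI cardiomyocytes had 51.5 to 68.6% Cox7a1 and 64.7 to 79.1% Cox8b, and EMPA-Pre-AMI cardiomyocytes had 58.8 to 76.0% and 65.6 to 79.7%, so the groups overlapped.

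**Figure D3:**
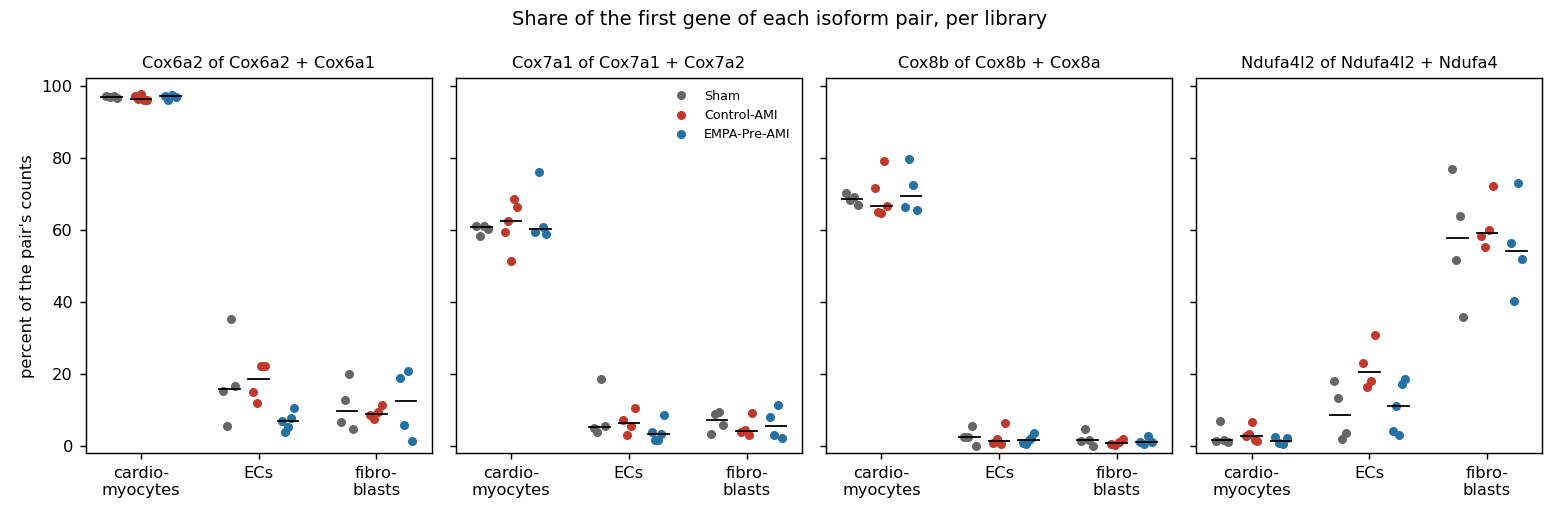
Percent of the counts of 4 isoform pairs that came from the first-named gene, 1 point per library, with group medians as lines. Cox6a2, Cox7a1 and Cox8b are above 50% in every cardiomyocyte library and below 36% in the others, whereas Ndufa4l2 is above 35% only in fibroblasts.

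Of the Sham ECs, 1 library was high both in the muscle isoforms and in cardiomyocyte markers. Sham EC library 3 was highest in Cox6a2 (90.5 CPM scaled within ECs), Cox7a1 (35.04 CPM) and the summed cardiomyocyte markers (1893 CPM, against 489 to 770 CPM in the other Sham ECs). Relative to those markers, Cox6a2 counts made up 5.55 to 7.99% in the cardiomyocyte libraries, and in the EC libraries 1.80 to 5.19% and the fibroblast libraries 1.32 to 5.66%. Cox6a1 counts made up 0.135 to 0.332% of the marker counts in cardiomyocytes and 8.82 to 58.6% and 15.7 to 97.2% in the other populations. The part of cardiomyocyte RNA in these levels was not tested.

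Ndufa4l2, a relative of the complex IV subunit Ndufa4, was the 1 member lower in Sham cardiomyocytes than in Sham fibroblasts (log2 -1.23, SE 0.50, FDR 0.0368). It was at 3.86, 15.9, 6.26 and 2.87 CPM in Sham cardiomyocytes, at 2.92, 3.66, 0.613 and 0.869 CPM in Sham ECs and at 10.97, 14.7, 26.0 and 17.3 CPM in Sham fibroblasts. Cardiomyocyte library 2 overlapped with the fibroblasts, and no EC library did. Its share of the pair with Ndufa4 was 35.7 to 76.8% in Sham fibroblasts, 2.00 to 18.2% in Sham ECs and 1.24 to 6.95% in Sham cardiomyocytes. Cox4i2, the low-oxygen isoform of Cox4, was at most 0.342% of its pair with Cox4i1 in any cardiomyocyte library and reached 5.77% in fibroblasts. Summed mural cell markers ranged from 916 to 5959 CPM in fibroblasts, with Control-AMI library 4 highest, which was also highest in Ndufa4l2 (66.3 CPM scaled within fibroblasts, against 13.1 to 19.5 CPM in the other Control-AMI libraries), and the part of such cells in it was not tested.

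Sham ECs and Sham fibroblasts differed less from each other. Of 82 members 16 differed at FDR under 0.05, below the 37.7% of all genes that did, with 2 higher and 14 lower in ECs and a median log2 fold change of -0.26. Without Sham EC library 4 the count was 10. Complex I gave 9 of them, with Ndufv3 (-1.04, SE 0.21) and Ndufa13 (-0.90, SE 0.18) lowest in FDR among those lower in ECs and Ndufa8 (0.86, SE 0.33) higher in ECs. Complex II gave none, complex III gave Uqcr10 (-0.60, SE 0.21), and complex IV gave Ndufa4l2 (-3.04, SE 0.55) and Cox8a (-0.63, SE 0.19). In complex V, Atp5f1e (-0.63, SE 0.22) and Atp5mg (-0.56, SE 0.19) were lower and Atp5pf (0.70, SE 0.24) was higher in ECs. The mitochondrially encoded subunits and the assembly factors, proteins that help build the complexes, were also higher in cardiomyocytes than in ECs, with 13 of 13 of the former and 43 of 51 of the latter called, against the 28.1% of all genes, and with medians of 4.44 and 1.81 on the log2 scale. Between ECs and fibroblasts 0 of 13 mitochondrially encoded subunits were called by edgeR (lowest FDR 0.0521), with a median of -0.26, and of the assembly factors 1 was higher and 9 were lower in ECs. The transcriptional regulators were mixed. Of 18 tested, 11 were higher in Sham cardiomyocytes than in Sham ECs, among them Ppargc1a, Esrra and Perm1, and Nrf1 and Gabpb1 were lower. Between Sham ECs and Sham fibroblasts, Gabpb1 and Hif1a were higher in ECs, and Myc, Ppara and Ppargc1b were lower.

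After ischemia and reperfusion alone, cardiomyocytes had slightly lower levels of most members, and none passed the test. Of 81 members tested, 0 were called between Control-AMI and Sham at FDR under 0.05, where 0.0655% of all 9167 genes were, and 0 had an unadjusted p under 0.05 by edgeR and 1 by DESeq2. The median log2 fold change was -0.17, with 78 members below 0, and by complex it was -0.17, -0.20, -0.20, -0.16 and -0.18 for complexes I to V. Over all genes the median was 0.01. Summed over the members, the Sham libraries were at 34181, 32467, 37599 and 31712 CPM and the Control-AMI libraries at 33838, 28885, 33489, 26669 and 29671 CPM, so the groups overlapped. Cardiomyocyte markers had a median of -0.11, EC markers of 0.38 and fibroblast markers of 0.16, with 0 called in each list. The part of cell makeup in the members' levels was not tested.

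Between EMPA-Pre-AMI and Control-AMI cardiomyocytes, 43 of 81 members were higher and none lower at FDR under 0.10, the threshold that the study used for this comparison, against 5.33% of all genes higher. The count was 0 at FDR under 0.05. By DESeq2 it was 44 at that threshold, but the share of all genes called by DESeq2 is not given here. At FDR under 0.10 the edgeR count was also 0 with only the 2 groups compared in the fit (median 0.72) and with the sheet list as a term (median 0.23). The median member was 1.64-fold higher (log2 0.72), while the median over all genes was -0.01. The count and the median rested on EMPA-Pre-AMI libraries 2 and 3. Without both of them 0 of 82 members were called, the median was 0.24, and 75 members were above 0. With the cardiomyocytes of sheet list 4 alone, which leaves EMPA-Pre-AMI library 4, 0 were called and the median was 0.24. Single libraries also decided the count, which was 0 without EMPA-Pre-AMI library 3, Control-AMI library 4 or Control-AMI library 5, 14 without EMPA-Pre-AMI library 2, 20 without Control-AMI library 2, and 27 without Sham library 2 or 3, while the median stayed between 0.48 and 0.85 when any 1 library was left out.

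Complex III had the largest share of members called, with 7 of 9 and a median log2 fold change of 0.87. Complex V had 12 of 18 (0.75), complex IV 8 of 14 (0.80), complex I 16 of 36 (0.61) and complex II 0 of 4 (0.59). Of the 7 core subunits of complex I tested, 4 were higher, and 12 of 29 accessory subunits were. The order of the complexes depended on EMPA-Pre-AMI libraries 2 and 3. Without library 2, complex II had the highest median (0.63, with 1 of 4 called). Complexes I, III, IV and V were then at 0.47, 0.62, 0.47 and 0.49. Without libraries 2 and 3, medians for complexes I to V were 0.21, 0.42, 0.26, 0.19 and 0.28, with 0 called. Summed levels of complex III were 3539, 3486, 3946 and 3288 CPM in Sham, 3429, 2933, 3558, 3151 and 3200 CPM in Control-AMI and 3743, 8059, 5918 and 3643 CPM in EMPA-Pre-AMI. Complex IV was at 8170, 7679, 8931 and 7415 CPM in Sham, at 8293, 6956, 7074, 6218 and 6883 CPM in Control-AMI and at 8079, 16948, 13651 and 8391 CPM in EMPA-Pre-AMI. Libraries 2 and 3 thus lay above every other cardiomyocyte library in both complexes, and libraries 1 and 4 lay within or just above the range of the Control-AMI libraries.

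**Figure D4:**
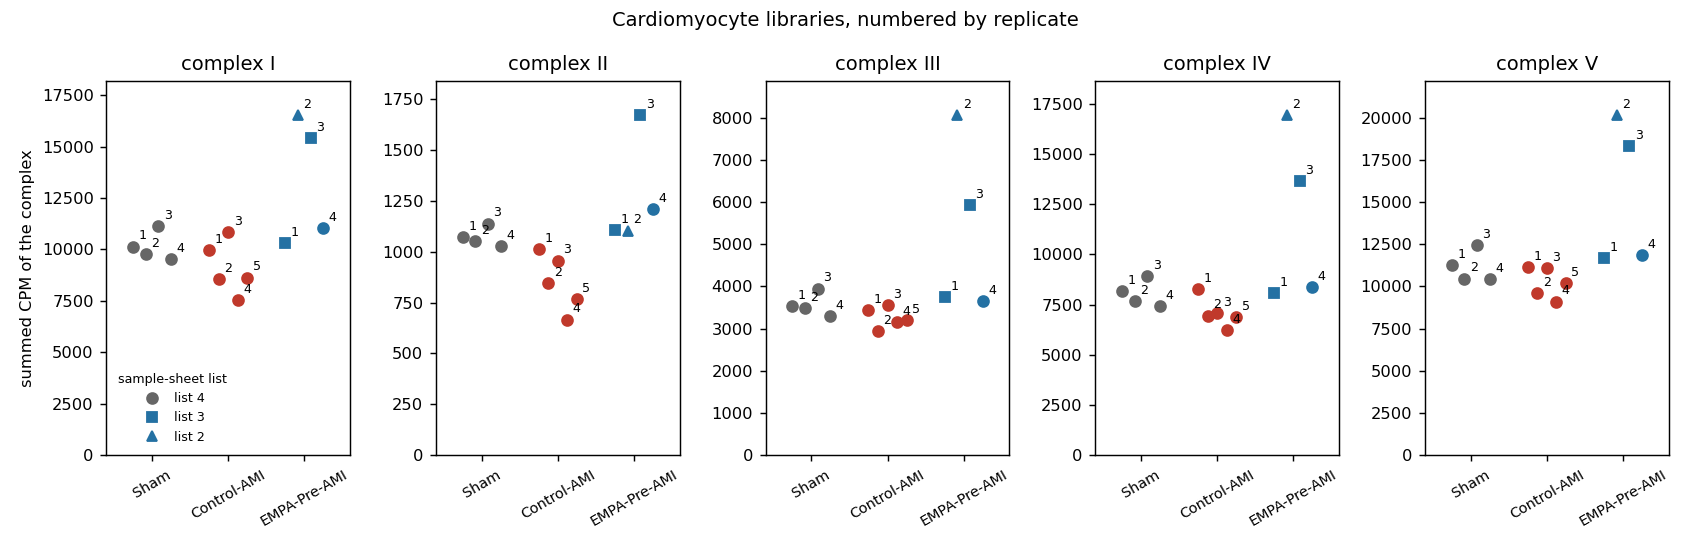
Summed CPM of each complex in the 13 cardiomyocyte libraries, scaled within cardiomyocytes, numbered by replicate, with the marker shape giving the sample-sheet list. EMPA-Pre-AMI libraries 2 and 3 are the highest in complexes I, III, IV and V, and in complex II library 3 is the highest and library 2 the lowest of the 4.

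Complex II behaved differently between libraries 2 and 3. Its summed level was 1072, 1054, 1138 and 1027 CPM in Sham, 1011, 845, 956, 666 and 768 CPM in Control-AMI and 1107, 1104, 1672 and 1210 CPM in EMPA-Pre-AMI. All 4 EMPA-Pre-AMI libraries were above the 5 Control-AMI libraries, but libraries 1 and 2 were within the Sham range, library 4 was just above it, and library 3 was far above it. Sdha was at 231, 214, 262 and 237 CPM in Sham, 262, 205, 247, 137 and 179 CPM in Control-AMI and 271, 214, 368 and 284 CPM in EMPA-Pre-AMI (log2 0.47, SE 0.21, FDR 0.168 against Control-AMI). Sdhb (0.54, FDR 0.112), Sdhc (1.03, FDR 0.137) and Sdhd (0.65, FDR 0.362) were likewise not called.

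Among the genes with the lowest FDR in each complex, Atp5mc2, 1 of the 3 genes for the c subunit, was at 114, 114, 138 and 128 CPM in Sham, 111, 103, 38.4, 67.7 and 101.7 CPM in Control-AMI and 143, 336, 329 and 129 CPM in EMPA-Pre-AMI. It was 2.77-fold higher in EMPA-Pre-AMI than in Control-AMI (log2 1.47, SE 0.31, FDR 0.0571), with all 4 libraries above all 5. Ndufa8, an accessory subunit of complex I, was at 148, 113, 160 and 140 CPM in Sham, 111, 109, 47.6, 115 and 110 CPM in Control-AMI and 171, 388, 346 and 131 CPM in EMPA-Pre-AMI (log2 1.39, SE 0.30, FDR 0.0571), again with no overlap between the AMI groups. Cyc1 was at 163, 151, 172 and 159 CPM in Sham, 137, 115, 142, 130 and 96.2 CPM in Control-AMI and 162, 508, 316 and 170 CPM in EMPA-Pre-AMI (log2 1.22, SE 0.26, FDR 0.0571). For each of these genes the Sham range reached the levels of EMPA-Pre-AMI library 1 or 4, whereas libraries 2 and 3 stood above it.

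The other members with the lowest FDR were Ndufc2 (log2 1.12, SE 0.25), Uqcrb (1.07, SE 0.25), Atp5pb, part of the peripheral stalk (0.98, SE 0.24), and Cox8a (0.79, SE 0.21), each at FDR 0.0571, and Cox5a (0.82, SE 0.22) at FDR 0.0574. Among subunits fixed for description whatever their result, Uqcrc1 (0.86), Uqcrfs1 (0.88), Cox5b (0.78), Atp5f1a (0.68) and Atp5f1b (0.90) were called, and Ndufv1 (0.29, FDR 0.373) and Ndufs1 (0.44, FDR 0.169) were not. Atp5if1 was at 232, 227, 237 and 185 CPM in Sham, 240, 234, 216, 146 and 200.2 CPM in Control-AMI and 192, 264, 286 and 210 CPM in EMPA-Pre-AMI (0.20, SE 0.19, FDR 0.538), with all groups overlapping. Ndufa5, the complex I member with the largest excess in cardiomyocytes, was the 1 member below 0 (-0.02, SE 0.26), and Atp5me was at 0.08 (SE 0.22).

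**Figure D5:**
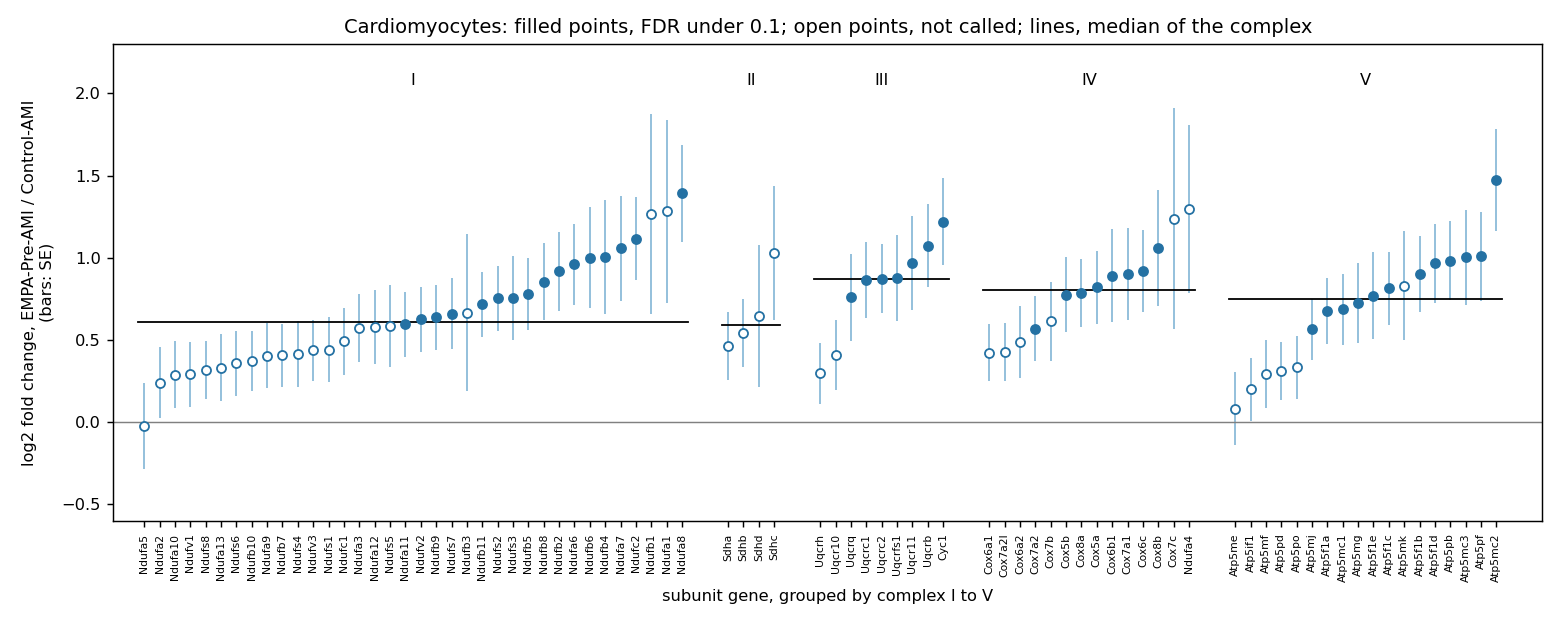
Log2 fold change with SE of each of 81 members in EMPA-Pre-AMI against Control-AMI cardiomyocytes, sorted within complexes I to V, with the median of each complex as a line. Filled points mark the 43 members at FDR under 0.1, none of which is in complex II. Without EMPA-Pre-AMI libraries 2 and 3 the count is 0.

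Within the isoform pairs of complex IV, Cox7a1 (log2 0.90, FDR 0.0739), Cox8b (1.06, FDR 0.0901), Cox8a (0.79) and Cox7a2 (0.57, FDR 0.0944) were higher in EMPA-Pre-AMI than in Control-AMI, and Cox6a1 (0.42, FDR 0.137), Cox6a2 (0.49, FDR 0.170) and Ndufa4 (1.30, FDR 0.143) were not called. Cox7a1 was at 898, 804, 977 and 800 CPM in Sham, 822, 750, 722, 862 and 929 CPM in Control-AMI and 903, 2976, 1330 and 899 CPM in EMPA-Pre-AMI, so that library 2 was more than 3-fold above every Sham and Control-AMI library. Cox6a2 was at 2591, 3012, 4369 and 2956 CPM in EMPA-Pre-AMI, where library 3 and not library 2 was the highest, and at 1655 to 2928 CPM in Control-AMI. Cox4i1 was not called (0.25, FDR 0.548). Ndufa4l2 did not pass the filter in cardiomyocytes and was at 1.27 to 7.04 CPM over all 13 libraries.

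Library by library, the median member was 1.18-fold above the Control-AMI mean in EMPA-Pre-AMI library 1, 2.28-fold in library 2, 1.94-fold in library 3 and 1.21-fold in library 4. Above every Control-AMI library lay 25, 69, 75 and 27 of 81 members, against 20.0%, 31.9%, 28.3% and 13.7% of all genes. Above every Control-AMI and every Sham library lay 15, 68, 75 and 9 members, but the share of all genes that did so was not counted. Library 2 was also the library with the highest share of mitochondrial counts (66.01%), and had the highest sums of erythroid (2656 CPM), leukocyte (195 CPM) and EC markers (1544 CPM) of the 13. Library 3 had the lowest sum of fibroblast markers (246 CPM, against 445 to 2061 CPM in the others). Of 9 fibroblast markers tested 2 were lower in EMPA-Pre-AMI than in Control-AMI and all 9 were below 0, of 10 EC markers 3 were lower, and of 11 cardiomyocyte markers 1 (Pln) was higher, with a median of 0.20. The part of cell makeup and of the sample-sheet list in the members' rise was not tested.

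The other genes of the pathway were read from fixed lists and were not tested against the members. Of all genes, 5.33% were higher in EMPA-Pre-AMI than in Control-AMI. Of the 13 mitochondrially encoded subunits 2 were higher (mt-Co1 and mt-Nd4l), with all 13 above 0 and a median of 0.64. Their summed level was 623394, 984381, 599360 and 627979 CPM in EMPA-Pre-AMI and 351896 to 666486 CPM in Control-AMI. Only library 2 thus lay above the Control-AMI range in this sum. Of 48 assembly factors 7 were higher (Atpaf1, Fmc1, Tmem70 and Tmem242, which serve the ATP synthase, Ndufaf3 and Ndufaf8, which serve complex I, and Sdhaf4, which serves complex II), with a median of 0.42. Of 15 transcriptional regulators 0 were called, with the lowest FDR at 0.192. Cycs and Ndufab1 were higher. Of 433 other genes of at most 1000 bases, 60 (13.9%) were called higher, with a median of 0.35, against 4.44% and a median of -0.04 for longer ones, and 71 genes for ribosomal proteins had a median of 0.27 with 4 called. Members of at most 1000 bases were at a median of 0.78 and longer members at 0.65. Of the members with a promoter window, 8 of 34 called and 8 of 31 not called held NRF1 letters. Any of the 4 motifs was found in 13 of the called and 13 of those not called.

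Against Sham, EMPA-Pre-AMI cardiomyocytes had 0 of 81 members called at FDR under 0.05 by edgeR and by DESeq2, where 0.338% of all genes were by edgeR. At an unadjusted p under 0.05 were 40 members by edgeR and 46 by DESeq2. The median was 0.51, with 80 members above 0, and 0.06 without libraries 2 and 3. Without EMPA-Pre-AMI library 4 the count was 23. By complex it was 0.47, 0.45, 0.67, 0.61 and 0.62 for I to V. This comparison and the one against Control-AMI share the EMPA-Pre-AMI libraries.

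In ECs, 1 of 79 members was called between Control-AMI and Sham, where 6.56% of all genes were. That member was Ndufa8, at 96.2, 139, 138 and 133 CPM in Sham, 65.8, 54.3, 83.5 and 76.0 CPM in Control-AMI and 120, 68.7, 145, 96.4 and 98.2 CPM in EMPA-Pre-AMI. It fell by 0.86 on the log2 scale (SE 0.21, FDR 0.0129), without overlap between Sham and Control-AMI, but it was not called with the sheet list as a term, on list 2 alone or without Sham library 3. Without Sham library 1 the count was 3, and without Control-AMI library 2 it was 2. The median of all members was -0.08. Of the 10 members with an unadjusted p under 0.05, 8 were lower and 2 higher in Control-AMI. The sums of complex I were 2324 to 2681 CPM in Sham and 1995 to 2746 CPM in Control-AMI, and those of complex V 2158 to 2533 and 2080 to 2842 CPM, so the groups overlapped. In the same libraries 6 of 9 fibroblast markers were higher and 2 of 10 EC markers lower in Control-AMI, and summed fibroblast markers were 3376 to 9160 CPM against 1675 to 2827 CPM in Sham, and their part in the members' levels was not tested.

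With empagliflozin, 0 of 79 members were called in ECs against Control-AMI by edgeR and by DESeq2, where 2.63% of all genes were by edgeR. At an unadjusted p under 0.05 were 9 members by each tool, and the median was -0.08. Against Sham, 0 were called by edgeR and 2 by DESeq2, where 2.71% of all genes were by edgeR. At an unadjusted p under 0.05 were 10 members by each tool, and the median was -0.14. Without EMPA-Pre-AMI library 2 (against Control-AMI) or Sham library 2 (against Sham) the count was 1. In the comparison with Control-AMI 7 of 9 fibroblast markers were lower (median -2.39), and 1 of 10 cardiomyocyte markers was lower, with none above 0 (median -1.06), and the part of such cells in the members' levels was not tested. Medians by complex against Control-AMI were -0.08, -0.08, 0.03, 0.04 and -0.10 for I to V. Cox7a1, at 10.0, 7.61, 35.04 and 9.02 CPM in Sham, 10.4, 4.67, 10.7 and 24.3 CPM in Control-AMI and 5.38, 2.70, 2.83, 6.18 and 15.0 CPM in EMPA-Pre-AMI, overlapped in all groups. Sdhd, Cox8b and Ndufa4l2 did not pass the filter in ECs.

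In fibroblasts, 0 of 80 members were called in any comparison, by edgeR or by DESeq2. Between Control-AMI and Sham 4.16% of all genes were called, the median member was at -0.11, and 4 members by edgeR and 3 by DESeq2 had an unadjusted p under 0.05. Between EMPA-Pre-AMI and Control-AMI 0% of all genes were called, with a median of -0.13 and 0 members at an unadjusted p under 0.05 by either tool. Against Sham, 5.11% of all genes were called in EMPA-Pre-AMI, the median was -0.19, and 13 members by edgeR and 11 by DESeq2 had an unadjusted p under 0.05, of which 12 and 10 were lower. Leaving out Sham library 1 gave 2 calls, and leaving out EMPA-Pre-AMI library 1 gave 1. Complex I had the lowest median there (-0.29), and its sums were 2446 to 3092 CPM in Sham and 2376 to 2523 CPM in EMPA-Pre-AMI. Sham libraries 2, 3 and 4 are on sheet list 1 (3078, 2957 and 3092 CPM), and Sham library 1 is on list 4 (2446 CPM). Of the EMPA-Pre-AMI libraries only library 4 is on list 1 (2523 CPM). The part of the list in this difference was not tested. Cyc1 was at 22.2, 21.1, 20.8 and 41.3 CPM in Sham, 27.2, 36.8, 19.9 and 39.9 CPM in Control-AMI and 25.4, 20.5, 30.6 and 32.1 CPM in EMPA-Pre-AMI, without separation. Sdhd and Cox8b did not pass the filter in fibroblasts.

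Whether empagliflozin acted differently on the members in the 3 populations was tested as the difference of the EMPA-Pre-AMI to Control-AMI log2 fold changes in 1 fit of all libraries. This fit took libraries of different populations as independent, although they can share hearts. Between cardiomyocytes and ECs 2 of 82 members differed at FDR under 0.05, where 0.993% of all genes did by edgeR, and 12 differed by DESeq2. The share of all genes called by DESeq2 is not given for this test or for the one against fibroblasts. Ndufb2, an accessory subunit of complex I, differed by 1.13 (SE 0.27, FDR 0.0337) and Atp5mc1 by 1.09 (SE 0.28, FDR 0.0446). In cardiomyocytes Ndufb2 was at 211, 188, 219, 202 and 196 CPM in Control-AMI and 251, 656, 397 and 232 CPM in EMPA-Pre-AMI, and in ECs at 57.2, 35.02, 38.8 and 54.8 CPM in Control-AMI and 39.8, 33.5, 43.0, 33.98 and 41.9 CPM in EMPA-Pre-AMI. Atp5mc1 was at 821 to 1134 CPM in Control-AMI and 1054 to 2231 CPM in EMPA-Pre-AMI cardiomyocytes, and at 64.2 to 79.7 and 41.6 to 85.1 CPM in the ECs. The median difference was 0.76, and all 82 members were above 0. The 11 cardiomyocyte markers were likewise all above 0 in this test, with a median of 1.22 and 0 called, and their part in the members' difference was not tested. Between cardiomyocytes and fibroblasts 0 differed by edgeR and 16 by DESeq2, where 0.00827% of all genes did by edgeR, with 49 at an unadjusted p under 0.05 by edgeR and a median of 0.73, while the median over all genes was -0.11. Both tests share the cardiomyocyte libraries, and without EMPA-Pre-AMI libraries 2 and 3 of the cardiomyocytes 0 members differed in either.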

How the data were processed

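The authors deposited 1 table of estimated counts per Ensembl gene from QuantSeq 3′ libraries, made with cutadapt 2.8, FastQC and Salmon against GRCm39, and the submitters' notes also name R 4.0.3 and edgeR. Values were rounded to whole numbers (4.55% were not whole), and 0 columns were left unused. Groups came from the sample titles. The members and lists were chosen with earlier results of these data known. Named genes were the 2 members of each complex with the lowest FDR in each direction, a fixed set of isoforms and core subunits, and the 2 largest and 2 smallest cardiomyocyte to EC folds per complex.

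Counts were filtered with filterByExpr (minimum count 10), scaled by TMM and tested by the quasi-likelihood test of edgeR 4.0.16 in R 4.3.3, with 1 fit of 3 groups per population and 1 fit of 9 groups over all libraries, and Benjamini-Hochberg adjustment (FDR) over all genes tested. The scripts were tested on simulated data. CPM use TMM library sizes, within a population unless a common scale is stated. DESeq2 1.42.0 and other normalizations, filters and sample sets were alternatives. Shares of all genes called are those of edgeR. Same-group libraries differed by more than sampling noise in all 62 pairs. Counts of 3 as a floor cover counting error only. The labels do not say whether libraries came from separate litters or days, so p-values measure the spread between pools of 2 hearts. ECs and fibroblasts were sorted from the supernatant of the cardiomyocyte pellet, so libraries of different populations can share hearts. The labels do not name the hearts. Some label numbers of 1 treatment group are consecutive across populations, such as 1663 (ECs) and 1664 (fibroblasts) in Control-AMI and 1669 and 1670 in EMPA-Pre-AMI. Whether such numbers mark shared hearts was not tested, and all comparisons between populations took the libraries as independent. Promoter sequences are from RefSeq. The values of 1 named gene are not reported here.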

Additional observations from a re-analysis of the deposited data

Results flagged for a closer look

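Among 117 groups of 4 or 5 libraries (each complex sum and each named isoform, in each population and treatment), 6 had 1 library far from the others by Dixon's criterion, where chance gives about 1 in 20. The summed level of complex II was lowest in Sham fibroblast library 1, at 283.79 CPM. Complex III was highest in Control-AMI EC library 4, at 837.97 CPM, and in EMPA-Pre-AMI fibroblast library 4, at 892.28 CPM. Cox7a1 was highest in Sham EC library 3, at 35.04 CPM, and in EMPA-Pre-AMI EC library 5, at 14.96 CPM, and both libraries were also the highest of their group in summed cardiomyocyte markers (1893 and 846 CPM). Ndufa4l2 was highest in Control-AMI fibroblast library 4, at 66.27 CPM, where summed mural markers were 5959 CPM. The part of other cells in these values was not tested.

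The response to empagliflozin after AMI differed between cardiomyocytes and ECs for Ndufb2, by 1.131 on the log2 scale (edgeR FDR 0.0337), and for Atp5mc1, by 1.086 (edgeR FDR 0.0446). Neither was called when cardiomyocyte EMPA-Pre-AMI libraries 2 and 3 were left out.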

How the results depend on the processing

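In cardiomyocytes, EMPA-Pre-AMI against Control-AMI, 43 members were called at FDR under 0.10, and 0 were called with the sheet list as a term, with only the 2 groups compared in the fit, without EMPA-Pre-AMI libraries 2 and 3, or with sheet list 4 alone (the last 2 were chosen after seeing the data). The median log2 fold change was 0.2304 with the sheet list as a term, 0.2429 without libraries 2 and 3 and 0.2433 with list 4 alone, and against Sham it was 0.0582, 0.0598 and 0.0666. At FDR under 0.05 the count was 44 with DESeq2, 25 with no filter and 21 with at least 10 counts in every library. In ECs, Control-AMI against Sham, 0 members were called with the sheet list as a term and 0 on list 2 alone, with medians of -0.2337 and -0.2595. For EMPA-Pre-AMI ECs against Control-AMI the median was 0.086 with the sheet list as a term, and against Sham 2 were called with DESeq2 and 1 with 10 counts in every library. In fibroblasts the sheet list as a term gave 1 call between Control-AMI and Sham, with a median of 0.0835, and 2 calls between EMPA-Pre-AMI and Sham. The difference of the empagliflozin response between cardiomyocytes and ECs gave 12 calls with DESeq2, 0 with no filter, 5 with 10 counts in every library, 4 with the sheet list as a term and 0 without libraries 2 and 3, and that between cardiomyocytes and fibroblasts gave 16 with DESeq2. The cause was not tested.

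With 1 library left out in turn, calls in cardiomyocytes ranged from 0 to 54 for EMPA-Pre-AMI against Control-AMI (0 to 45 at FDR under 0.05, with 35 without EMPA-Pre-AMI library 1 and 45 without library 4; medians 0.4783 to 0.853), from 0 to 23 against Sham (0.3117 to 0.6397) and stayed at 0 for Control-AMI against Sham (-0.2184 to -0.1161). In ECs they ranged from 0 to 3 for Control-AMI against Sham (-0.1554 to -0.0107), from 0 to 1 for EMPA-Pre-AMI against Control-AMI (-0.1492 to 0.019) and from 0 to 1 against Sham (-0.2066 to -0.0946). In fibroblasts they were 0 (-0.2109 to -0.0466), 0 (-0.1736 to -0.0169) and 0 to 2 (-0.3117 to -0.1439). Sham cardiomyocytes kept 81 to 82 calls against either population, and Sham ECs 10 to 16 against fibroblasts. No gene named for its FDR, or for its Sham cardiomyocyte to EC fold, reversed its direction in the alternatives checked. Of 192 values for such genes in cardiomyocytes 66 lost their call. The fixed set and, for the Sham comparisons, the runs with 1 library left out were not part of this check. In cardiomyocytes, EMPA-Pre-AMI against Control-AMI, all 4 complex II members, which belong to the fixed set, were above 0. With the sheet list as a term 3 of 4 were, and the lowest was at -1.05.

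Replicate numbers are shared between groups and were not taken to pair the libraries, since not every same-numbered pair correlated over 0.1. The deviations of same-numbered libraries correlated at -0.0903 to 0.174 (cardiomyocytes), -0.0642 to 0.207 (ECs) and -0.1129 to 0.482 (fibroblasts), with 3, 4 and 6 of 12 pairs over 0.1. In fibroblasts the median was 0.0987, against -0.00973 for differently numbered pairs. With the replicate block, 0 members were called in cardiomyocytes (EMPA-Pre-AMI against Control-AMI, 50 at an unadjusted p under 0.05, median 0.68), 1 in ECs for EMPA-Pre-AMI against Control-AMI and 1 against Sham, and 0 for the difference between cardiomyocytes and ECs. Depth limited Cox8b, Sdhd and Ndufa4l2, whose counts were low in at least 1 population.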
